A study of Mus musculus with 6 samples.

Results

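Expression of DNA replication genes was compared between murine Th9 cells, T helper cells that secrete IL-9, that had or had not been exposed to sphingosylphosphorylcholine (SPC, d18:1), a lysosphingolipid. The set was a list of 41 gene symbols of the replication machinery, all 41 of which were among the 23183 symbols measured and among the 12226 genes with enough counts to be tested. The 3 SPC libraries came from cells given 30 µM SPC, and the 3 control libraries from cells that were not. All cells were naive CD4+ T cells of wild-type C57BL/6N spleens, stimulated for 3 days with anti-CD3e bound to the plate and soluble anti-CD28, each at 1 µg/ml. Both groups also received 10 ng/ml of IL-4, TGF-β1 at 2 ng/ml and an antibody to IFN-γ at 10 µg/ml, so that the controls were themselves Th9 cultures and not resting cells. Libraries bear the numbers 1 to 3 in each group, and the series text speaks of 3 independent experiments. The labels used here give neither age nor sex of the mice, nor whether spleens were pooled. Naive cells were obtained with an enrichment kit, and no sort by cell cycle phase is described.

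A cell copies its genome once per cycle. In G1 the origin recognition complex (ORC), Cdc6 and Cdt1 load the Mcm2 to Mcm7 ring onto DNA, and geminin then blocks reloading. At the start of S phase cyclin E and its kinase help to turn the loaded ring into the active helicase with Cdc45 and the GINS complex, after which clamp, clamp loader and polymerases copy the strands. E2F factors drive many of these genes at the G1/S boundary, and naive T cells, which are quiescent, switch them on when activated.

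Promoters from RefSeq (GRCm38.p6, 250 bases before to 50 after an annotated start) are shown for helicase subunits with an entry and for Ccne1. They were chosen because Mcm2 and Ccne1 were called against control when library number was added to the fit as a block. No member was called without it, and both calls were lost when the libraries numbered 2 or 3 were left out. The other subunits are the nearest members in function. Capitals mark matches to TTTCCCGC, TTTCGCGC, TTTGCCGC or TTTGGCGC, letters of the E2F consensus, searched on both strands. The regions are Mcm2 at chr6:88898731-88899030, strand -, Ccne1 at chr7:38107441-38107740, strand -, Mcm3 at chr1:20820263-20820562, strand -, Mcm5 at chr8:75109259-75109558, strand +, Mcm6 at chr1:128359656-128359955, strand - and Mcm7 at chr5:138171834-138172133, strand -.
Mcm2: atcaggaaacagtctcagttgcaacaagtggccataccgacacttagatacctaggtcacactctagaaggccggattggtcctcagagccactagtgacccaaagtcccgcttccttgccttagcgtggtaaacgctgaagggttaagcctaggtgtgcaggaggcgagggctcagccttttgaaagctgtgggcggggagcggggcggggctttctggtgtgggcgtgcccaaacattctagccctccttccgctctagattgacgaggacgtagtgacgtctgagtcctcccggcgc
Ccne1: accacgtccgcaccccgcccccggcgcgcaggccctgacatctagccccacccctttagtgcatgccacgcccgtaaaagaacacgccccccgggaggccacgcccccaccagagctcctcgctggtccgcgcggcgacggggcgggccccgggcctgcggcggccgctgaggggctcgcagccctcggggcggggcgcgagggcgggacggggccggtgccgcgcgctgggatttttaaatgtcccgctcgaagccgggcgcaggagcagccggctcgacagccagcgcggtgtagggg
Mcm3: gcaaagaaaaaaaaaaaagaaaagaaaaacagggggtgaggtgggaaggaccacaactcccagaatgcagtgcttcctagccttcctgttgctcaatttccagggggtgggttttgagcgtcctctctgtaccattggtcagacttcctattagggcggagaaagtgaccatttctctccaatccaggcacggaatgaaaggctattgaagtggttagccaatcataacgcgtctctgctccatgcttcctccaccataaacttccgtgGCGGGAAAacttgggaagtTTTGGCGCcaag
Mcm5: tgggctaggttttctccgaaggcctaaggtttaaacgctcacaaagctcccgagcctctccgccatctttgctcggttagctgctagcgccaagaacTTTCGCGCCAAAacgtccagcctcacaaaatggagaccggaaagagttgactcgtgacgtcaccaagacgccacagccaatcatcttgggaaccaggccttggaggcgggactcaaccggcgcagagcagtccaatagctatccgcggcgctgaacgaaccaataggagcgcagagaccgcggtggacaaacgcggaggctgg
Mcm6: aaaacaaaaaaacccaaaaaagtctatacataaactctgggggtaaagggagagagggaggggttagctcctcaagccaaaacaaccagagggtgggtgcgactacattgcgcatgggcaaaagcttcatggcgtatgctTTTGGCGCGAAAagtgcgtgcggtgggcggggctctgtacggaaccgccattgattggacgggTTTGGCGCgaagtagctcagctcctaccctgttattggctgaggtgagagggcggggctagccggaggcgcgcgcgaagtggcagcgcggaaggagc
Mcm7: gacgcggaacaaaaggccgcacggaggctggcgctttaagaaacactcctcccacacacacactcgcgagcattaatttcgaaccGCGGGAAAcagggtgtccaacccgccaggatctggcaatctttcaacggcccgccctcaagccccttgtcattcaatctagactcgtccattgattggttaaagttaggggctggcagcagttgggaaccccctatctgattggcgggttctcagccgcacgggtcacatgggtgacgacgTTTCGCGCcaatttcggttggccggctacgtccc
In these windows Mcm3, Mcm5, Mcm6 and Mcm7 had matches and Mcm2 and Ccne1 had none. Mcm7 had 2 entries, and its matches lay in the one shown. Mcm5 and Mcm6 each held a pair on opposite strands that overlap one another. Entries were found for 32 of the 41 members, and 13 of these 32 (40.6%) had a match in at least 1 promoter, against 4.85% of 9327 tested genes and 2.6% of all 27025 genes with an entry. The other members with a match were Orc1, Cdc6, Cdt1, Gins3, Rfc3, Pola1, Pold1, Lig1 and Uhrf1. The letters CCAAT occurred in promoters of 20 of the 32 members (62.5%) and 43.2% of tested genes. Neither share was particular to the members. Of the lists described below, 30.6% of 36 further replication genes and 36.4% of 22 G1/S regulators had an E2F match. It was 0% of 13 further nucleotide genes and 4.17% of 24 mitosis genes. CCAAT occurred in 47.2%, 59.1%, 46.2% and 79.2% of these lists, in the same order. A match describes letters and is not evidence of a bound site. The lack of a match to these exact letters is likewise not evidence that no site is bound.

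The libraries held 22002050 to 33049997 counts, and each member had at least 403 (Gins3) and up to 18044 counts (Pcna) in a library. T cell markers summed to 1378 to 1532 CPM (counts scaled to a common library size) in SPC and 1453 to 1493 CPM in control libraries. Markers of B cells, of CD8 T cells and of myeloid, dendritic, NK and erythroid cells summed to at most 4.77 CPM per list in any library, with Ms4a1, Ncr1 and Hbb-bs at 0 in all. Of genes known from Th9 cells, Il9 had 981, 1020.0 and 1412 CPM in SPC libraries 1 to 3, against 559, 536 and 522 CPM in control libraries 1 to 3. Irf4 and Batf were at or above 84.8 CPM in every library, while Spi1, which encodes PU.1, was at or below 0.0664 CPM in all of them. Gata3 went the other way from Il9, with 248, 215 and 235 CPM in SPC libraries 1 to 3, against 249, 256 and 279 CPM in control libraries 1 to 3.

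Replication genes were expressed in both groups, and the difference between the groups was small for every member. Together the 41 genes made up 0.753%, 0.727% and 0.67% of the counts in SPC libraries 1 to 3, against 0.768%, 0.758% and 0.707% in control libraries 1 to 3. Within each same-numbered pair the SPC share was the lower, but SPC libraries 1 and 2 lay above control library 3, so the groups overlapped. These shares were not tested. In bulk RNA, fewer cells in S phase and less RNA of these genes per cell cannot be told apart.

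**Figure D1:**
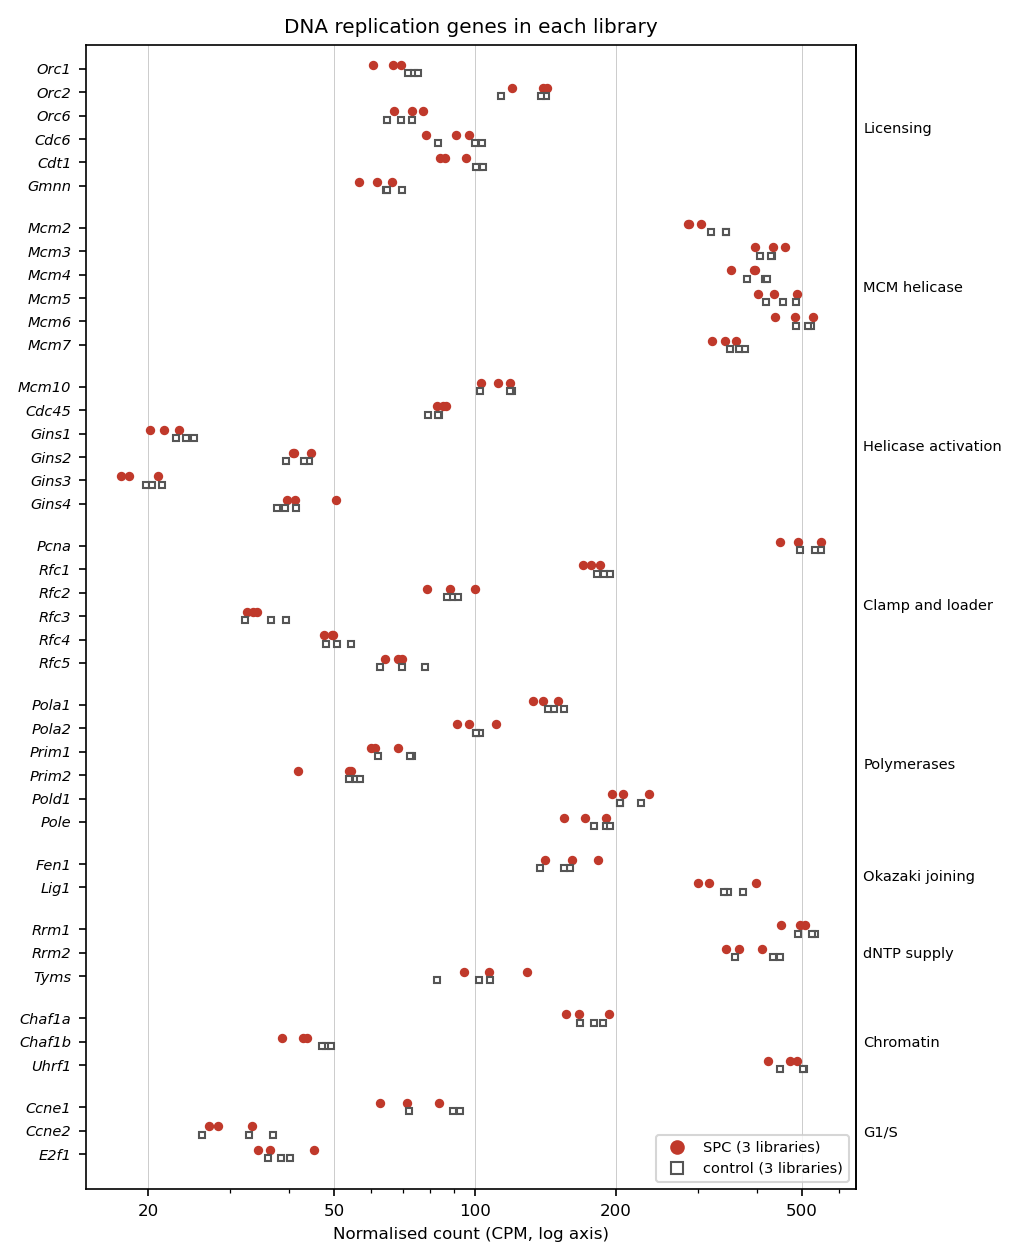
Normalised counts (TMM-scaled CPM, log axis) of the 41 DNA replication genes, grouped by role; each filled circle is an SPC library and each open square a control library. Levels run from 19.7 CPM for Gins3 to 511 CPM for Pcna on average, and for 37 of the 41 genes the groups overlap; Orc1, Cdt1, Mcm2 and Chaf1b are lower in every SPC library.

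None of the 41 genes was called in the comparison of SPC with control (edgeR quasi-likelihood test, Benjamini-Hochberg adjusted p under 0.05), where 0.483% of all tested genes were. DESeq2 called none either. At an unadjusted p under 0.05 there were 3 members, Mcm2, Cdt1 and Chaf1b (7.32%, against 10.2% of all tested genes). The log2 fold change, SPC over control, was below 0 for 32 members and above 0 for 9, with a median of -0.08, against a median of 0.00193 and 49.5% below 0 over all tested genes. When SPC library 3 was left out, 25 members were below 0 and 16 above, with a median of -0.027, and when control library 1 was left out 26 were below and 15 above, with a median of -0.040. The values spanned only -0.22 (Ccne1) to 0.18 (Tyms). The 95% intervals of all 41 members excluded a 1.5-fold change in either direction. The widest reach downward was that of Ccne1, to 0.702-fold, and the widest upward that of Tyms, to 1.4-fold.

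The replicate numbers paired the libraries, and with the number as a block 2 members fell, Mcm2 and Ccne1. That is 4.88% of the members, against 3.07% of tested genes lower in the same test. No member was called higher, against 4.02% of tested genes, and 7.08% were called in either direction. At an unadjusted p under 0.05 there were 7 members with the block (17.1%, against 21.4% of tested genes). The shares called among members were thus near those of all genes. Leaving out both libraries numbered 2, or both numbered 3, left no member called with the block. Leaving out both numbered 1 gave 12 lower members and 1 higher of the 41. That fit called 17.4% of all tested genes, a smaller share than among the members. It was added after the data were seen and has 1 residual degree of freedom.

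**Figure D2:**
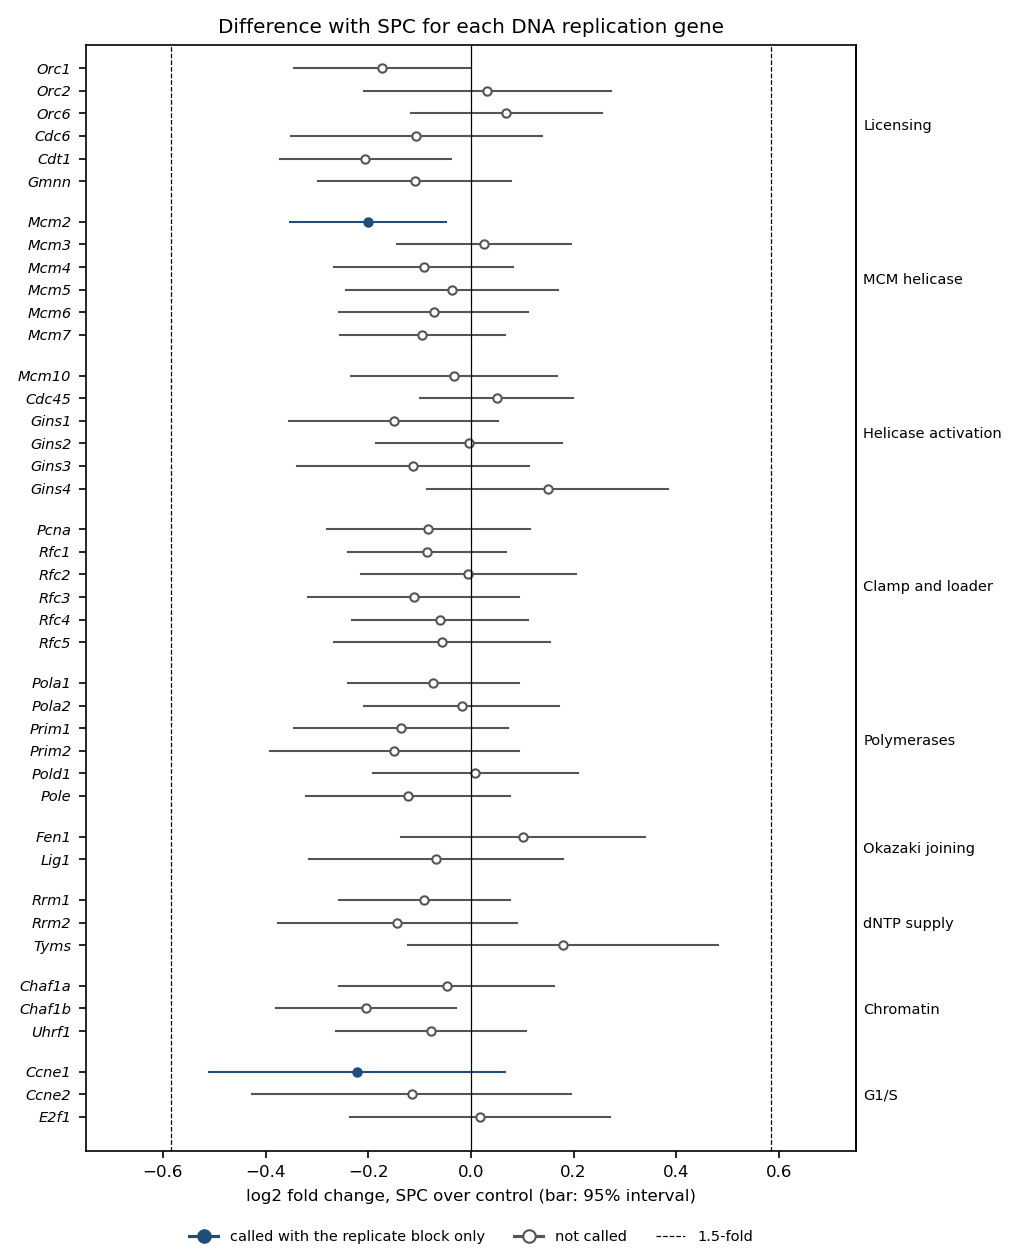
Log2 fold change, SPC over control, of each DNA replication gene with its 95% interval (edgeR without the block, n = 3 libraries a group); dashed lines mark a 1.5-fold change. Every interval lies between the dashed lines, and Mcm2 and Ccne1, drawn filled, are the members called with the replicate block.

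Of the 6 genes of origin licensing 4 were below 0 and 2 above, and none was called. Cdt1, which brings the Mcm ring to ORC, had 95.7, 86.2 and 84.1 CPM in SPC libraries 1 to 3, against 102, 101 and 104 CPM in control libraries 1 to 3. Every SPC library was below every control library, an order seen in 4 members (9.76%) and in 7.8% of tested genes. The opposite order was seen in 0 members and in 8.67% of tested genes. The difference, SPC over control, came to -0.21 ± 0.07 on the log2 scale (SE), with an edgeR adjusted p of 0.357, or 0.0624 under the block. Gmnn encodes geminin, the inhibitor of Cdt1, and had 66.5, 61.7 and 56.6 CPM with SPC, against 64.6, 70.0 and 64.9 CPM in control (-0.11 ± 0.08, adjusted p = 0.737). Per kilobase of annotated exon, the level of Cdt1 was 0.671, 0.652 and 0.693 times that of Gmnn in SPC libraries 1 to 3, against 0.738, 0.672 and 0.747 times in control libraries 1 to 3. The ratio was thus lower with SPC in each pair but overlapped between the groups.

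Orc1, the largest ORC subunit, whose level changes through the cycle, was also lower in every SPC library, at 60.6, 69.3 and 66.8 CPM, against 74.2, 75.6 and 71.8 CPM in control (-0.17 ± 0.08, adjusted p = 0.489). The other ORC genes on the list went the other way by less than their spread. Orc2 had 140.0, 143 and 119.8 CPM with SPC, against 142, 138 and 114 CPM in control, and Orc6 averaged 72.6 ± 5.06 CPM with SPC and 69.2 ± 4.18 CPM in control (SD, n = 3 each). Cdc6, the loader that joins ORC and Cdt1, averaged 88.9 ± 9.31 CPM with SPC and 95.7 ± 10.8 CPM in control (adjusted p = 0.827).

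Mcm2 was the one helicase subunit that fell in the test with the block on all 6 libraries. It lies on chromosome 6 (88883474 to 88898780, minus strand, mm10) and had 287, 304 and 285 CPM in SPC libraries 1 to 3, against 343, 343 and 320.0 CPM in control libraries 1 to 3. The groups did not overlap, and Mcm2 was lower with SPC in all 3 pairs. The means were 292 ± 10.1 CPM with SPC and 335 ± 13.4 CPM in control, or -0.20 ± 0.07 in log2 fold change. The edgeR adjusted p was 0.313 without and 0.0329 with the block. The blocked call was lost when the libraries numbered 2 (-0.20 ± 0.09, adjusted p = 0.231) or 3 (-0.22 ± 0.08, adjusted p = 0.154) were left out, and held when those numbered 1 were (-0.17 ± 0.03, adjusted p = 0.00018). These fits hold 2 libraries a group, have 1 residual degree of freedom and were added after the data were seen.

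The other 5 subunits, which form the same ring, were not called in either fit of all 6 libraries. Their difference from Mcm2 was not tested. Without the libraries numbered 1, the blocked fit that held Mcm2 also called Mcm4 (-0.10, adjusted p = 0.0142), Mcm6 (-0.12, adjusted p = 0.00306) and Mcm7 (-0.11, adjusted p = 0.00949). That fit called 17.4% of all tested genes. Mcm3 had 460.2, 433 and 396 CPM with SPC, against 430.3, 429.6 and 407 CPM in control (0.03 ± 0.07, adjusted p = 0.948). Mcm4 had 396, 395 and 352 CPM with SPC, against 417, 421 and 381 CPM in control (-0.09 ± 0.08, adjusted p = 0.780). Both overlapped between the groups, and for Mcm4 each SPC library was below the control of its number. Mcm5 had 488, 434 and 402 CPM with SPC, against 486, 455 and 419 CPM in control (-0.04 ± 0.09, adjusted p = 0.942). Mcm6 had 526, 482 and 438 CPM with SPC, against 523, 515 and 485 CPM in control (-0.07 ± 0.08, adjusted p = 0.849). In both genes library 1 was highest in each group, and SPC was slightly above control in pair 1 and below it in pairs 2 and 3. Mcm7 had 360.4, 341 and 322 CPM with SPC, against 377, 366 and 350.2 CPM in control (-0.09 ± 0.07, adjusted p = 0.735). Its groups overlapped, and like Mcm4 it was lower with SPC in all 3 pairs. Counting the exons of all annotated transcripts, Mcm7 overlaps Mir25 and Mir93 on the same strand and Ap4m1 and Cops6 on the opposite strand. Which of these transcripts were expressed was not tested.

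The ring holds each subunit once, but the values per length of annotated exon differed between the subunits. Per kilobase of annotated exon, the mean level over the 6 libraries was 114 CPM for Mcm3, 112 for Mcm5, 109.7 for Mcm4, 106 for Mcm6, 79.7 for Mcm7 and 45.1 for Mcm2. The exonic length of each subunit counts all annotated transcripts together, which lowers its value if the longest are not expressed. That length was 6956 bases for Mcm2, against 3589 (Mcm4) to 4666 (Mcm6) for the others. Whether the transcripts themselves were at unequal levels was not tested. The ratio of Mcm2 to Mcm3 was 0.336, 0.378 and 0.388 in SPC libraries 1 to 3, against 0.43, 0.431 and 0.424 in control libraries 1 to 3. Every SPC library was below every control library in that ratio, which was chosen for display after the values were known and was not tested.

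Genes that activate the helicase showed no called difference, with or without the block. Cdc45 and the 4 GINS genes complete the active helicase with the Mcm ring, and Mcm10 acts in its firing. Mcm10 had 119, 112 and 103 CPM with SPC, against 120.2, 119 and 103 CPM in control (-0.03 ± 0.09, adjusted p = 0.947). Gins1 had 23.3, 21.6 and 20.2 CPM with SPC, against 25.1, 24.1 and 23.0 CPM in control, and was lower in each pair with a slight overlap of the groups (-0.15 ± 0.09, adjusted p = 0.659). Gins4 had 50.3, 41.3 and 39.6 CPM with SPC, against 37.7, 41.5 and 39.2 CPM in control (0.15 ± 0.10, adjusted p = 0.709), a difference that lay in SPC library 1. Cdc45 ranged over 83.1 to 86.5 CPM in SPC libraries and 79.4 to 83.7 CPM in control libraries. Gins2 ranged over 40.9 to 44.6 CPM with SPC and 39.5 to 44.1 CPM in control. Gins3, the lowest member, ranged over 17.5 to 21.1 CPM with SPC and 19.8 to 21.4 CPM in control. All 3 overlapped between the groups, with log2 fold changes of 0.05, -0.0044 and -0.11. In Gins2, 67.3% of exonic bases overlap Gse1 on the opposite strand, so its counts are uncertain where strand was not used. The same holds for Chaf1a (52.5%, Ubxn6) and Orc2 (29.8%, Nif3l1).

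The sliding clamp and its loader, replication factor C, had log2 fold changes below 0 in all 6 genes, down to -0.11, none of them called; with library size alone as the scaling, Rfc2 was above 0. Pcna, the clamp, was the highest member in CPM and per kilobase (213 CPM per kilobase of exon). It had 548, 491 and 449 CPM in SPC libraries, against 549, 534 and 494 CPM in control libraries (-0.08 ± 0.09, adjusted p = 0.835). Pair 1 was nearly level, and the groups overlapped. Rfc3 had 33.5, 34.3 and 32.6 CPM with SPC, against 39.4, 36.7 and 32.2 CPM in control (-0.11 ± 0.09, adjusted p = 0.768). Rfc1, Rfc2, Rfc4 and Rfc5 had log2 fold changes of -0.09, -0.0052, -0.06 and -0.06. Rfc1, the large subunit, was the most abundant of them in CPM, at 178 ± 7.14 CPM with SPC and 188 ± 6.01 CPM in control (SD, n = 3 each), and all 4 overlapped between the groups.

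No polymerase or primase gene was called in either fit. Pola1 and Pola2 with Prim1 and Prim2 form the primase complex that starts each strand, and Pold1 and Pole encode the catalytic subunits that extend them. Prim2 had 41.8, 54.4 and 53.7 CPM with SPC, against 53.7, 55.8 and 56.6 CPM in control (-0.15 ± 0.11, adjusted p = 0.724), and SPC library 1 alone was far below the rest. Pold1 had 235, 196 and 207 CPM with SPC, against 204, 204 and 226 CPM in control (0.01 ± 0.09, adjusted p = 0.988), and here SPC library 1 was the highest. Pole had 155, 191 and 172 CPM with SPC, against 190.3, 194 and 179.6 CPM in control (-0.12 ± 0.09, adjusted p = 0.722), and again SPC library 1 was the lowest. Prim1 averaged 63.1 ± 4.59 CPM with SPC and 69.3 ± 6.25 CPM in control (SD, n = 3 each). Pola1 and Pola2 had log2 fold changes of -0.07 and -0.02. The polymerase and primase genes thus overlapped between the groups, and 4 of these 6 (Pola1, Prim1, Prim2 and Pole) were lower with SPC in all 3 pairs.

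Fen1 and Lig1 trim and join Okazaki fragments. Fen1 had 183, 161 and 141 CPM with SPC, against 159.7, 155 and 138 CPM in control (0.10 ± 0.10, adjusted p = 0.832), with SPC higher in each pair. Of its exonic bases 84.2% lie in exons of genes on the opposite strand, Tmem258 among them, so its counts are uncertain. Lig1 had 399, 316 and 299 CPM with SPC, against 374, 348 and 341 CPM in control (-0.07 ± 0.11, adjusted p = 0.897).

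Enzymes of deoxynucleotide supply differed in sign. Rrm1 and Rrm2 encode the large and small subunits of ribonucleotide reductase. Rrm1 had 496, 507 and 449.7 CPM with SPC, against 532, 526 and 489 CPM in control (-0.09 ± 0.07, adjusted p = 0.768). Rrm2 had 366, 411 and 345 CPM with SPC, against 448, 432 and 358 CPM in control (-0.14 ± 0.10, adjusted p = 0.722). Both were lower with SPC in all 3 pairs, yet overlapped between the groups. Tyms, which makes thymidylate, had 129, 107 and 94.8 CPM with SPC, against 108, 102 and 82.7 CPM in control, the largest positive log2 fold change of the set (0.18 ± 0.13, adjusted p = 0.732 by edgeR, 0.0986 under the block).

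Among chromatin genes, Chaf1b, a subunit of the histone chaperone CAF-1, was lower in every SPC library, at 43.7, 43.0 and 38.8 CPM, against 48.1, 49.3 and 47.2 CPM in control (-0.20 ± 0.08, adjusted p = 0.386 by edgeR, 0.0986 under the block). Chaf1a, its partner subunit, averaged 172 ± 19.0 CPM with SPC and 178 ± 9.85 CPM in control. Uhrf1, which carries DNA methylation through replication, had 487, 471 and 422 CPM with SPC, against 505, 503 and 448 CPM in control (-0.08 ± 0.08, adjusted p = 0.835).

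At the G1/S boundary, Ccne1, which encodes cyclin E1 (chromosome 7, 38097984 to 38107534, minus strand), had 83.8, 71.7 and 62.7 CPM in SPC libraries 1 to 3, against 92.7, 89.6 and 72.4 CPM in control libraries 1 to 3. SPC was lower in each pair, by 0.14, 0.32 and 0.21 on the log2 scale, but the groups overlapped, since control library 3 lay below SPC library 1. SPC over control came to -0.22 ± 0.13 in log2 fold change, with an edgeR adjusted p of 0.634, or 0.0471 under the block. With the block it came to -0.16 ± 0.10 (adjusted p = 0.449) without the libraries numbered 2, -0.23 ± 0.09 (adjusted p = 0.185) without those numbered 3 and -0.27 ± 0.05 (adjusted p = 0.000204) without those numbered 1. Each of these added fits has 1 residual degree of freedom. Ccne2, which encodes cyclin E2, had 27.1, 33.4 and 28.2 CPM with SPC, against 36.9, 32.9 and 26.1 CPM in control (-0.12 ± 0.14, adjusted p = 0.857), and was lower with SPC in pair 1 alone. E2f1, a transcription factor of this gene set, had 45.2, 36.4 and 34.3 CPM with SPC, against 38.5, 36.0 and 40.2 CPM in control (0.02 ± 0.11, adjusted p = 0.978), with the pairs differing in sign.

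**Figure D3:**
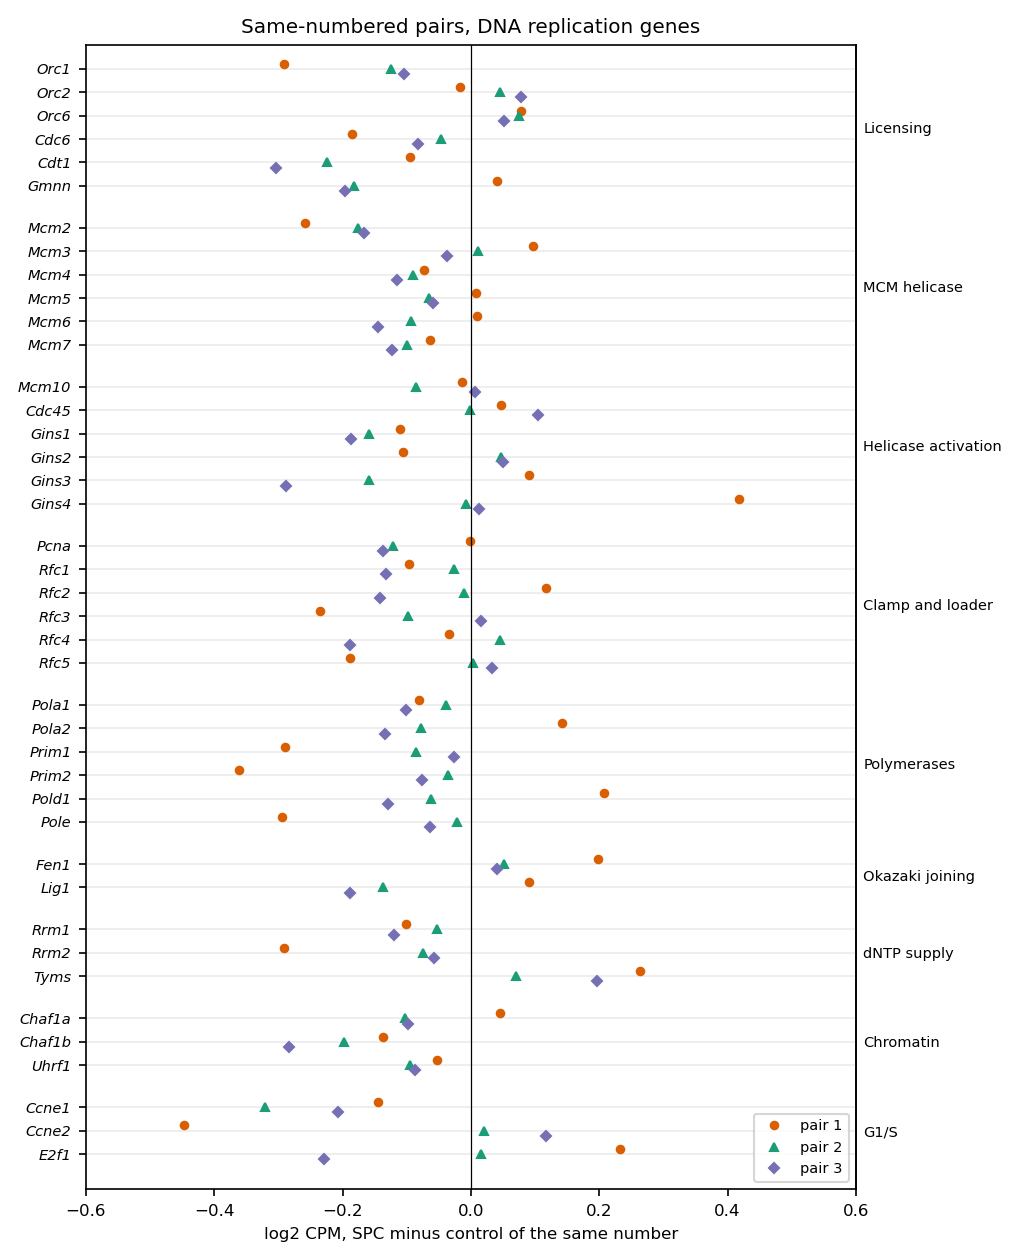
Difference in log2 CPM between the SPC and the control library of the same number, for each of the 41 genes and the 3 pairs. Pair 1 spans -0.45 to 0.42, pair 2 -0.32 to 0.07 and pair 3 -0.30 to 0.20, and 18 genes are below 0 in all 3 pairs.

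SPC was below control in all 3 pairs for 18 members (43.9%, against 22% of tested genes) and above it in all 3 for Orc6, Fen1 and Tyms (against 21.8% of tested genes). Of the lists described below, the share lower in all 3 pairs was 59.3% of 27 mitosis genes and 41.4% of 29 G1/S regulators. It was 36.6% of 41 further replication genes and 26.7% of 15 further nucleotide genes. The median pair difference over the 41 genes was -0.05, -0.07 and -0.10 in pairs 1, 2 and 3, with 25, 31 and 30 genes below 0. Over all tested genes these medians lay between -0.00277 and 0.00218. Across all tested genes the pair 1 differences correlated with log2 exonic length at -0.217 and with GC content at 0.210 (Pearson, 12147 and 11758 genes), against at most 0.0414 with length in the other pairs and between -0.0734 and 0.00107 with GC. Across the 41 members the correlation with GC was 0.460, -0.202 and -0.310 in pairs 1, 2 and 3, and that with length was -0.209, 0.0817 and 0.0915. Genes within a library share its preparation, and the part of these properties in the differences was not tested.

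The level of the set also went with library number. Libraries numbered 3 also had the fewest counts, 22715292 in SPC and 22002050 in control, against 26015703 or more in the others. Whether depth had a part in the level was not tested. The 41 genes had median deviations from their own means of 0.05, 0.00 and -0.13 (log2) in SPC libraries 1 to 3, against 0.09, 0.07 and -0.04 in control libraries 1 to 3. Only 2 of 41 genes in SPC library 3 and 12 of 41 in control library 3 were above their own mean, against 38 of 41 in control library 1. For 33 members the range over the 3 numbers exceeded the difference between the groups (80.5%, against 77.9% of tested genes), with a median range of 0.17 and a median difference of 0.09 in size. A range over 3 values tends to be wider than a difference of 2, and for 8 members it was the narrower, Mcm2 and Cdt1 among them. In the test across the 3 numbers (edgeR, with group in the fit), 6 members were called, Orc2, Cdc6, Mcm5, Fen1, Tyms and Ccne1, or 14.6% against 10.9% of tested genes. That count moved with single libraries. It was 0 when SPC library 3 was left out, 3 when SPC library 2 was, and 25 when SPC library 1 was, in fits that called 4.38%, 11.5% and 26.7% of all tested genes. Among controls it was 2 when library 3 was left out, 5 when library 2 was, and 32 when library 1 was, in fits that called 9.15%, 14.2% and 47.3% of all tested genes.

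**Figure D4:**
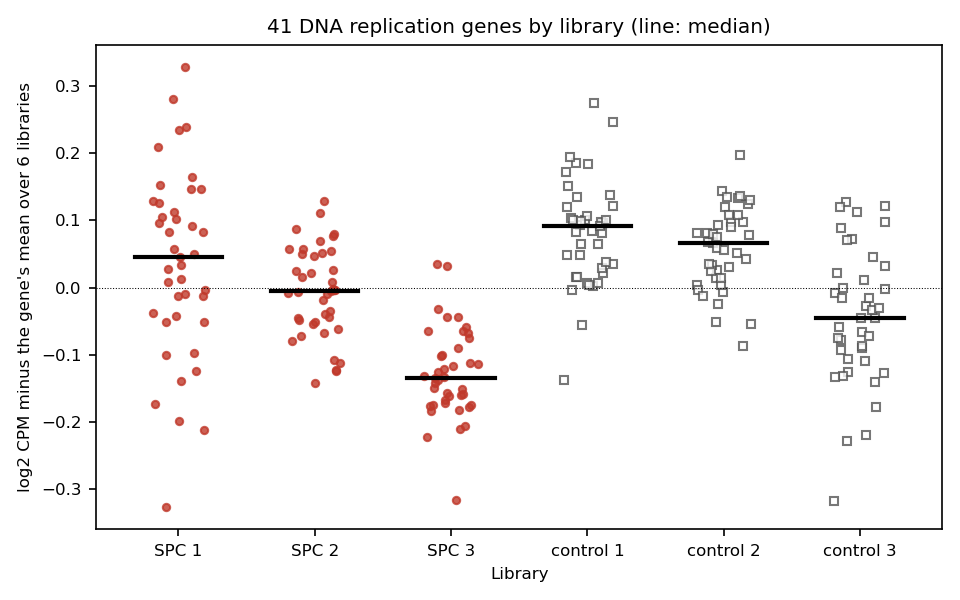
Deviation of each DNA replication gene from its own mean over the 6 libraries (log2 CPM), by library; each point is 1 of the 41 genes and the line is their median. The medians are 0.05, 0.00 and -0.13 in SPC libraries 1 to 3 and 0.09, 0.07 and -0.04 in control libraries 1 to 3, so library 3 is the lowest in both groups.

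The members shared much of this profile. With the mean standardised level of Mcm2 to Mcm7 as a yardstick, the other 35 members had a median Pearson correlation of 0.685 over the 6 libraries. Of these members 17 exceeded 0.7. Over all 12220 tested genes outside Mcm2 to Mcm7, the 35 members included, the median was -0.04 and 1583 exceeded 0.7. Uhrf1 (0.980), Pcna (0.979) and Ccne1 (0.977) were the closest members and Prim2 (-0.259) the farthest. The 5 genes with the highest correlation lay outside the list. They were Rad23b (0.998), Pip5k1c (0.996), Eif2b5 (0.996), Ywhaz (0.994) and Coro1c (0.993). These are descriptions over 6 libraries that share 3 numbers.

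None of 41 further genes of origins, forks and their chromatin was called with or without the block (1 and 9 had an unadjusted p under 0.05 without and with it), with 27 below 0 and a median log2 fold change of -0.05. The smallest p belonged to Pole2, the accessory subunit of polymerase epsilon, with 25.8, 25.6 and 25.7 CPM in SPC libraries, against 30.8, 28.0 and 28.5 CPM in control libraries (-0.18 ± 0.08, adjusted p = 0.480), and to Rpa1, the large subunit of the single-strand binding protein (-0.15 ± 0.07, adjusted p = 0.529). Of 15 further nucleotide genes none was called in either fit (median -0.03). Dck, a salvage kinase, had -0.20 ± 0.08 (adjusted p = 0.419 by edgeR, 0.0564 under the block), and Rrm2b, the p53-inducible reductase subunit, had 0.28 ± 0.14 (adjusted p = 0.562).

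Regulators of the G1/S step held 4 genes called with the block of 29 tested, and none without it (median -0.06, 19 below 0). With the block 2 were higher and 2 lower (6.9% lower), against 4.02% higher and 3.07% lower of all tested genes. Cdkn1a and Cdkn1b, which encode the cyclin-dependent kinase inhibitors p21 and p27, rose in that test. Cdkn1a had 195, 223 and 253 CPM with SPC, against 149.5, 179 and 236 CPM in control (log2 fold change with the block 0.26 ± 0.06, adjusted p = 0.0262). Cdkn1b had 45.1, 60.7 and 74.6 CPM with SPC, against 41.8, 43.1 and 56.6 CPM in control (0.34 ± 0.08 with the block, adjusted p = 0.0285). Both were higher with SPC in every pair, and in each group highest in library 3, where the replication genes were lowest. Whether these levels are related was not tested, and 10.9% of all tested genes were called in the test across library numbers. Cdkn2c, which encodes the Cdk4 and Cdk6 inhibitor p18, fell in the blocked test, with 12.0, 10.6 and 11.9 CPM with SPC, against 14.7, 13.8 and 18.8 CPM in control (-0.44 ± 0.10, adjusted p = 0.0200). Ccnd3, which encodes cyclin D3, also fell, with 177, 193 and 197 CPM with SPC, against 218, 214 and 223 CPM in control (-0.21 ± 0.05 with the block, adjusted p = 0.0407). For Cdkn2c and Ccnd3 the groups did not overlap. With the block and without the libraries numbered 2, Cdkn1a (0.25, adjusted p = 0.0965), Cdkn1b (0.27, adjusted p = 0.171) and Ccnd3 (-0.23, adjusted p = 0.160) were not called. Without those numbered 3, Cdkn1b (0.30, adjusted p = 0.119), Cdkn2c (-0.34, adjusted p = 0.133) and Ccnd3 (-0.22, adjusted p = 0.168) were not. All 4 were called without those numbered 1, in a fit with 1 residual degree of freedom that called 17.4% of all tested genes. Mitosis genes had a median of -0.09 over 27 genes, with 22 below 0, against a median of -0.08 for the replication genes. None was called without the block, and Ttk and Plk1 fell with it (7.41%, against 3.07% of all tested genes called lower). With the block but without the libraries numbered 3 neither was called (adjusted p = 0.115 and 0.242). Without those numbered 2 Plk1 was not (adjusted p = 0.408). In 8 of 27 mitosis genes (29.6%) every SPC library was below every control library, against 9.76% of the replication genes and 7.8% of tested genes. The difference between these lists was not tested.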

How the data were processed

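The authors deposited raw read counts per gene symbol, 1 file per library and unnormalised. TopHat and mm10 are named in the submitters' processing notes. For the aligner's version, counting program, annotation and strand setting, nothing is given in the sources used here. Total RNA (1.3 µg a library) went into a kit that keeps strand, per the labels' protocols.

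Deposited counts were tested with edgeR 4.0.16 (R 4.3.3), by the robust quasi-likelihood F test with TMM scaling, group as the only term, filterByExpr (minimum count 10, minimum total 15) and Benjamini-Hochberg adjustment over 12226 genes, called at 0.05. Each SE is the log2 fold change over the square root of F, and intervals are 95% t intervals from the same fit. The scripts were tested on simulated data. DESeq2 1.42.0 was an alternative. CPM values are counts over TMM-scaled library sizes; exonic lengths, GC and positions are from GENCODE M21 (GRCm38, the assembly mm10 names), which gave lengths for 98.44% of symbols. Nothing says whether libraries are separate animals, so p-values measure the spread between these libraries. With 3 against 3, an exact permutation p cannot go below 0.1, so none was computed.

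Pairing was checked on deviations from group means: over genes, r within numbers 1, 2 and 3 was 0.413, 0.208 and 0.508, above the limit of 0.1, and the series text speaks of independent experiments. No 2 libraries agreed within counting noise (chi-square per degree of freedom 4.82 to 43.4). The lowest value was between control libraries 1 and 2, and SPC library 1 was at 23.4 or above against every other library. By this measure same-numbered libraries were thus not always the closest. Genes shown per library follow a rule (the helicase, clamp, cyclin E, E2f1, Cdt1, Gmnn and reductase genes, the highest and the most changed member of each role, and all called members); Orc1, Gins4, Pole, the Th9 genes and the ratios between members were added after values were seen. Members, lists and rule were chosen with earlier results of these data known. Pclaf was matched through its RefSeq synonym.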

Additional observations from a re-analysis of the deposited data

How the results depend on the processing

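No member was called under the other scalings, without the filter, with the DESeq2 Wald test or in any fit without the block that left out 1 library or 1 number. The replicate block called 866 genes, 2 members, 4 G1/S regulators and 2 mitosis genes, where the fit without it called 59, 0, 0 and 0; it changed no other call on the lists. Without the filter 147 genes were called, and DESeq2 called 282, with 1 mitosis gene (Ttk, adjusted p = 0.0307). When 1 library was left out, 6 to 66 genes were called. Without both libraries numbered 1, 2 or 3, the counts were 15, 0 (502 at an unadjusted p under 0.05) and 38. The median log2 fold change of the members lay between -0.11 (SPC library 1 left out) and -0.027 (SPC library 3 left out), and was -0.040 when control library 1 was left out.

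Fits with the block that left out both libraries of a number were added after seeing the data and have 1 residual degree of freedom. Without number 1 they called 2112 genes (17.4% of those tested) and 13 of 41 members. They also called 7 of 41 other replication genes, 4 of 15 nucleotide genes, 8 of 29 G1/S regulators and 10 of 27 mitosis genes. Without number 2 the counts were 699, 0, 0, 0, 2 and 2, and without number 3 they were 563, 0, 0, 0, 2 and 1. The cause was not tested. In the test across numbers 10 members were called without the filter (12.3% of all genes), and 0 to 32 when a library was left out (4.38% to 47.3% of all genes).

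Over all alternatives run, signs turned for 14 of the 41 members, none of them called in the fits without or with the block. Of these, 6 (Chaf1a, Gins2, Pola2, Rfc2, Rfc4 and Rfc5) are not among the 25 shown per library by rule; library size alone turned Gins2 and Rfc2. For the other 8, with 1 library left out the log2 fold change ranged from -0.056 to 0.11 for Orc2, -0.027 to 0.080 for Mcm3, -0.12 to 0.025 for Mcm5, -0.096 to 0.020 for Mcm10, -0.071 to 0.066 for Pold1, -0.21 to 0.012 for Lig1, -0.24 to 0.0085 for Ccne2 and -0.11 to 0.096 for E2f1. Without number 1, the values without and with the block were -0.0118 and -0.0120 for Mcm3, -0.096 and -0.095 for Pold1, 0.061 and 0.064 for Ccne2, and -0.11 and -0.10 for E2f1. Without number 2, Mcm10 had 0.0065 and 0.0066. Each member had at least 403 counts per library, and 3 libraries a group limit the precision.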
